A study of Mus musculus with 5 samples.

Results

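The 9 genes described here encode the enzymes that build and degrade glycogen in the liver cell and the subunits that regulate them: Ugp2, Gyg, Gys2 and Gbe1 for synthesis, Pygl and Phka2 for breakdown, and Ppp1r3b, Ppp1r3c and Ppp1r3g for the switch between these directions. They were taken by symbol from the 32285 genes of the deposited count matrix, and all 9 were found there. The counts came from hepatocytes isolated from livers of male wild-type (WT) C57BL/6J mice on normal chow whose RNA was counted cell by cell in droplets. The mice of every group had first been trained for 3 days to a cycle of 16 h without food overnight and 8 h of feeding by day, and on the day of sampling were given chow with 20% sucrose in the drinking water. The fed group (0 h) was taken after 4 h of this feeding, at clock hour 13. The fasted groups were taken 4, 8, 16 and 24 h after chow and sucrose water had been withdrawn, at clock hours 17, 21, 5 and 13. Fasting time and hour of day therefore cannot be told apart, except between 0 h and 24 h, which share an hour. Each group was 1 library, and how many mice contributed to it is not stated in the sources used here, so no difference below has a replicate check or a p-value, and each describes these libraries.

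Liver glycogen is a branched polymer of glucose that is filled after a meal and emptied during a fast to hold blood glucose. Glycogen synthase and glycogen phosphorylase catalyse its growth and its shortening, and phosphorylation sets them in opposite ways: it inactivates the synthase and activates the phosphorylase. Protein phosphatase 1 (PP1) reverses both, and reaches glycogen through targeting subunits, of which Ppp1r3b, Ppp1r3c and Ppp1r3g are 3. Transcript levels report neither the phosphorylation of these enzymes nor the glycogen content, which these files do not measure. Ugp2, Pygl, Phka2, Ppp1r3b and Ppp1r3g each overlap an antisense gene that is also in the matrix, and the use of strand in counting is not stated in the labels, so reads of such a pair may not have been told apart.

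In brief, the targeting subunits varied most. Ppp1r3b was highest in the fed library and 5.44-fold lower at 16 h. Ppp1r3c was 6.43-fold higher than fed at 8 h and back near the fed level at 24 h. Ppp1r3g was nearly absent when fed and was at its highest at 4 h. The synthesis genes Ugp2, Gbe1 and Gys2 were all at their lowest at 8 h and higher again at 16 h. Gyg, the other synthesis gene, was sparse and at its lowest in the fed library. Pygl was highest in the fed library and lower at every later time.

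The upstream regions of Ppp1r3c, the member with the largest ratio to fed among those above 10 CPM (counts per 1000000 non-mitochondrial UMIs), and of Pygl are shown because they hold the motifs searched for. The sequences are RefSeq's for GRCm38 (mm10, the build of the submitters' processing notes), on the gene's strand and 5′ to 3′, with the motif in capitals. The window searched was the 250 bases before each RefSeq start, on both strands, for CACGTG (the E-box, a site for clock and other basic helix-loop-helix factors) and for TGACG or its complement CGTCA (the core of the cAMP response element, here called the CRE site, bound by CREB). The set of RefSeq promoters used here held a start for 7 of the 9 members, with 8 promoters in all. It had no entry for Gys2 or Ppp1r3b, so these were not searched. Ppp1r3c spans chr19:36731731-36736653 on the minus strand and has CACGTG 104 bases before its RefSeq start; the 201 bases upstream of annotated exons, chr19:36736654-36736854, are printed. Pygl spans chr12:70190811-70231488 on the minus strand, and its printed window, chr12:70227684-70227933, lies inside the GENCODE gene span with CGTCA 44 bases before the RefSeq start.
Ppp1r3c: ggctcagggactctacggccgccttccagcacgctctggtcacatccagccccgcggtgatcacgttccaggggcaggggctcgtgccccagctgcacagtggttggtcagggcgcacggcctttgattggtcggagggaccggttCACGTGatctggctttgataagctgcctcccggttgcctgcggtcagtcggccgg
Pygl: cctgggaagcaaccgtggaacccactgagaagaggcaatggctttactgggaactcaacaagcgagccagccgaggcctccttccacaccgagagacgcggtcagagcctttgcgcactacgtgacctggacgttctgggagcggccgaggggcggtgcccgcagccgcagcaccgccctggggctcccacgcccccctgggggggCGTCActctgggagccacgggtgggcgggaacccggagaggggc
The E-box was in 1 of the 8 member promoters, against 6.02% of 32851 RefSeq promoters. The CRE site was in 2 of the 8, Pygl and Ppp1r3g (40 bases before the start), against 17.8%. No member promoter held both. A match describes the letters only, and no binding was measured.

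Hepatocytes were barcodes with at least 1000 UMIs (unique molecular identifiers, each standing for 1 captured transcript), at least 500 genes and 2 to 30% mitochondrial UMIs. They numbered 7826, 4567, 2716, 9125 and 4576 at 0, 4, 8, 16 and 24 h, with 33521626 to 45532684 non-mitochondrial UMIs per library. All 7 hepatocyte markers were detected in each library, together at 88348 to 117915 CPM. Endothelial markers summed to 112 CPM when fed and 15.1 to 41.9 CPM later, with all 10 detected each time, and Kupffer cell markers to 36.3 CPM when fed and 0.12 to 5.52 CPM later, with 6 of 8 at 0 at 8 h. Without the barcodes carrying markers of another class, the ratios of Ppp1r3b, Ppp1r3c, Ugp2 and Gbe1 to fed moved by less than their counting intervals. Barcodes under 2% mitochondrial UMIs were 21.7, 53.5, 17.3, 2.50 and 54.0% of those past the other filters in time order. They were kept out, and their values are given beside the results. The median UMI count per hepatocyte ran from 4391 at 16 h to 15005 at 8 h. Of all barcodes, 259 16-base sequences occurred in more than 1 library, 73 of them among hepatocytes.

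**Figure D1:**
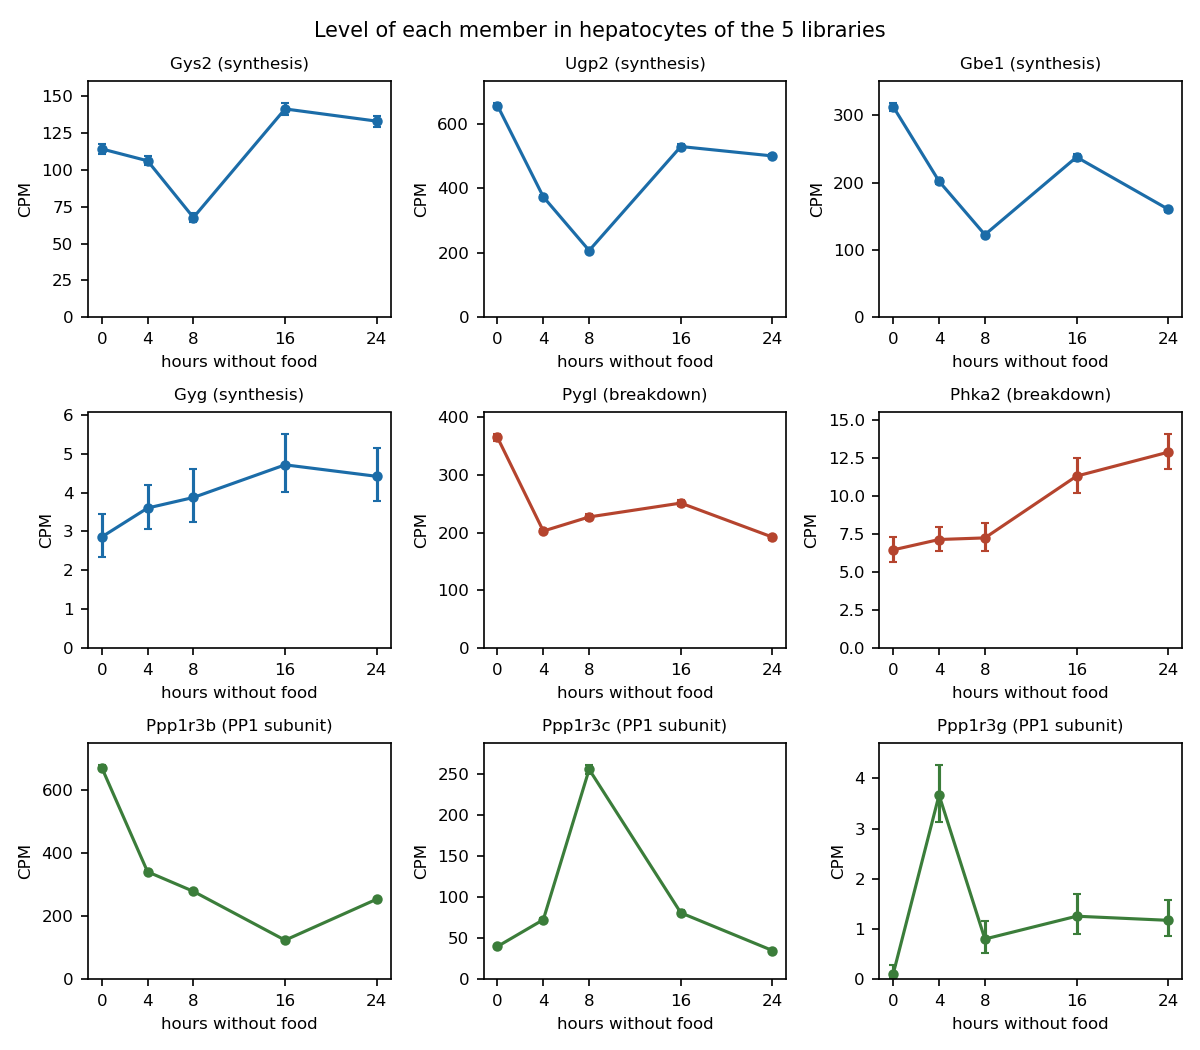
Level of each of the 9 genes in hepatocytes (CPM, vertical axis starting at 0) against hours without food, 1 library per point. Bars are exact 95% Poisson intervals and cover counting error only. Ugp2, Gbe1 and Gys2 had their lowest points at 8 h, Ppp1r3b at 16 h, and Ppp1r3c its highest at 8 h.

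Synthesis starts with Ugp2, UDP-glucose pyrophosphorylase, which makes the activated glucose that glycogen synthase uses (chr11:21321138-21371201, minus strand). Ugp2 was at 657 CPM when fed and at 373, 207, 530 and 500 CPM in the 4, 8, 16 and 24 h libraries. The 8 h library was the low one, 3.18-fold below fed (95% interval 3.09 to 3.26, counting error only, as for all intervals here). At 16 h the level was within 1.24-fold of fed. Among barcodes under 2% mitochondrial UMIs Ugp2 was higher than in hepatocytes in 4 of the 5 libraries, at 1138, 579, 159, 745 and 811 CPM in time order, and the 8 h library was again the lowest.

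Gbe1, the branching enzyme that adds side chains to the polymer (chr16:70313949-70569716, plus strand), had the same low point. Gbe1 stood at 313, 202, 123, 238 and 160 CPM at 0, 4, 8, 16 and 24 h. The fed library was the highest, and the ratio of fed to 8 h was 2.55-fold (2.46 to 2.64). At 24 h the ratio was 1.95-fold (1.89 to 2.01), just under the 2-fold line. Among barcodes under 2% mitochondrial UMIs Gbe1 was at 178, 123, 62.8, 168 and 97.8 CPM in time order, also lowest at 8 h.

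Gys2, the liver glycogen synthase that extends the chains (chr6:142422613-142473109, minus strand), stayed within a narrower band. Its levels were 114, 106, 67.7, 141 and 133 CPM in time order. Only the 8 h library was clearly lower than fed, 1.69-fold (1.61 to 1.78), whereas 16 h was 1.24-fold (1.19 to 1.29) and 24 h 1.17-fold (1.12 to 1.21) above fed. At 4 h the log2 ratio to fed was -0.11, and it changed sign to 0.11 with TMM scaling, so no direction is given there. Gys2 thus had its highest hepatocyte levels in the 2 longest fasts, when Ugp2 and Gbe1 were still under their fed levels. Barcodes under 2% mitochondrial UMIs had 94.4, 87.1, 33.4, 88.9 and 114 CPM in time order. There the log2 ratio to fed was -1.50 (-1.95 to -1.08) at 8 h, against -0.76 in hepatocytes, and -0.09 (-0.63 to 0.41) at 16 h, so the higher 16 h level of Gys2 was not seen in them.

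Gyg, glycogenin, which primes a new glycogen particle (chr3:20122084-20155317, minus strand), was sparse. It was at 2.86, 3.60, 3.87, 4.71 and 4.42 CPM, under 10 CPM in every library. The ratio to fed was 1.65-fold (1.28 to 2.13) at 16 h and 1.55-fold (1.21 to 1.99) at 24 h. At 4 h the interval of its ratio, 0.98 to 1.62, included 1. Barcodes under 2% mitochondrial UMIs held 3 to 81 Gyg UMIs per library, at 1.74 to 10.2 CPM.

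On the breakdown side, Pygl, the liver glycogen phosphorylase that releases glucose 1-phosphate, was highest when fed. Its levels were 365 CPM when fed and 203, 227, 252 and 192 CPM in the fasted libraries in time order. All 4 fasted libraries were below fed, by 1.80-fold (1.75 to 1.85), 1.61-fold, 1.45-fold and 1.90-fold (1.85 to 1.95) in time order. None reached 2-fold. Among barcodes under 2% mitochondrial UMIs Pygl was at 399, 247, 111, 315 and 210 CPM in time order, with its lowest level at 8 h and a log2 ratio to fed there of -1.84 (-2.08 to -1.61), against -0.68 in hepatocytes. The number of Pygl UMIs per Gys2 UMI, which does not depend on how libraries are scaled, was 3.20 when fed and 1.91, 3.36, 1.78 and 1.44 in the fasted libraries. In hepatocytes this pair therefore sat near its fed balance at 8 h, when both genes were low, and shifted towards Gys2 at the other fasted times.

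Phka2, the liver alpha subunit of the kinase that activates the phosphorylase (chrX:160502166-160598878, plus strand), went the other way from Pygl. Phka2 was at 6.46, 7.14 and 7.24 CPM at 0, 4 and 8 h, and at 11.3 and 12.9 CPM at 16 and 24 h. The first 3 libraries had overlapping intervals. The ratio to fed was 1.75-fold (1.49 to 2.07) at 16 h and 1.99-fold (1.71 to 2.34) at 24 h. The 24 h value passed 2-fold with TMM or median-of-ratios scaling, with a minimum of 3000 or 6000 UMIs and without barcodes of another class (log2 0.69 to 1.19 over the 10 alternatives that can move a ratio to fed). Among barcodes under 2% mitochondrial UMIs, Phka2 was at 4.97, 3.19, 7.20, 12.7 and 5.94 CPM in time order, on 20, 36, 11, 5 and 111 UMIs. Its log2 ratio to fed there was 0.26 (-0.44 to 1.02) at 24 h.

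Among the PP1 subunits, Ppp1r3b, the main liver targeting subunit known to promote synthase activity and glycogen storage (chr8:35375739-35388139, plus strand), was lower than fed at every fasted time. Its levels were 671, 340, 278, 123 and 254 CPM at 0, 4, 8, 16 and 24 h. The ratio of fed to fasted was 1.97-fold (1.93 to 2.01), 2.41-fold, 5.44-fold (5.26 to 5.62) and 2.65-fold (2.59 to 2.71) in time order. The level at 24 h was above that at 16 h by 1.04 on the log2 scale. Barcodes under 2% mitochondrial UMIs held less Ppp1r3b in all 5 libraries and had the same order at the ends, with 326 CPM when fed and 86.4 CPM at 16 h. Over the 10 alternatives the log2 ratio to fed was -2.60 to -2.36 at 16 h, and at 4 h it was -1.45 to -0.77, on both sides of the 2-fold line.

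Ppp1r3c, also called PTG, is a second targeting subunit that brings PP1 to glycogen and is known to promote its storage. It was at 39.7 CPM when fed and at 72.3, 255, 80.6 and 34.7 CPM after 4, 8, 16 and 24 h. The 8 h library stood far above the rest, 6.43-fold over fed (6.08 to 6.79). The ratios to fed were 1.82-fold (1.71 to 1.94) at 4 h and 2.03-fold (1.91 to 2.16) at 16 h, and at 24 h the level was 1.14-fold (1.06 to 1.23) below fed, at the same clock hour. In barcodes under 2% mitochondrial UMIs Ppp1r3c was at 27.8, 29.4, 122, 61.0 and 14.99 CPM, again highest at 8 h. Over the 10 alternatives the log2 ratio of Ppp1r3c to fed was 2.57 to 2.93 at 8 h and 0.93 to 1.10 at 16 h, where the 2-fold call was lost with all UMIs in the denominator or with 2 to 15% mitochondrial UMIs.

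The balance between these 2 subunits differed at every time. The number of Ppp1r3c UMIs per Ppp1r3b UMI was 0.0592 (0.0561 to 0.0623) when fed and 0.212 (0.204 to 0.220) at 4 h. It reached 0.917 (0.890 to 0.944) at 8 h, was 0.653 (0.622 to 0.686) at 16 h and 0.137 (0.129 to 0.145) at 24 h. No interval overlapped another.

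**Figure D2:**
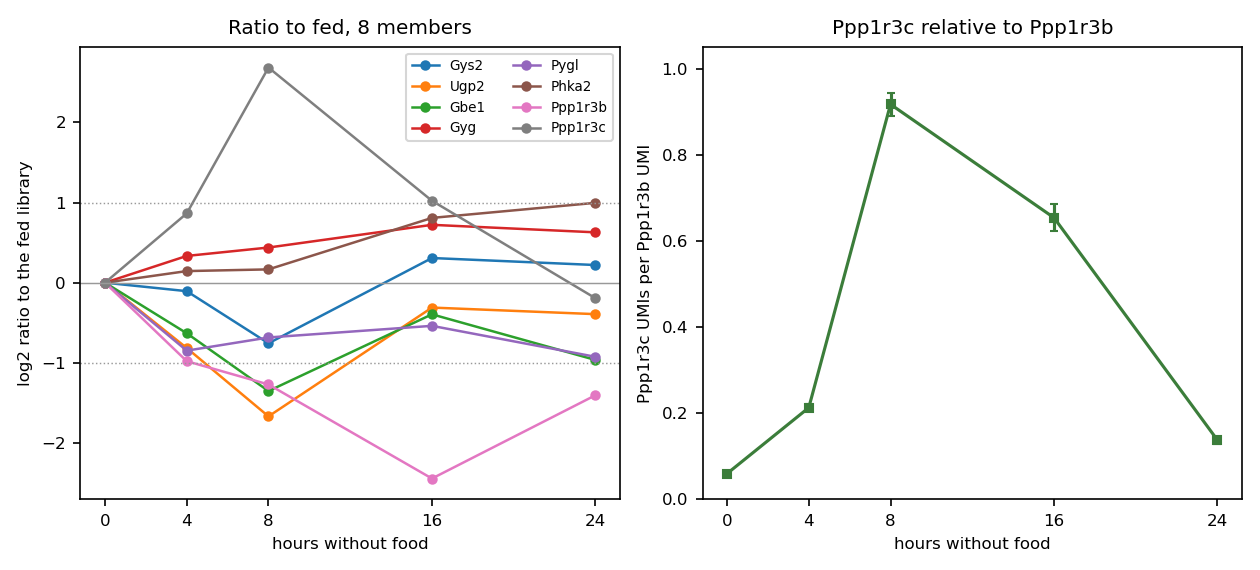
Left, log2 ratio to the fed library against hours without food for 8 of the 9 genes (Ppp1r3g, with 4 fed UMIs, is left out), with dotted lines at 2-fold. Right, Ppp1r3c UMIs per Ppp1r3b UMI with exact 95% intervals for counting error, highest at 8 h (0.917) and lowest when fed (0.0592).

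Ppp1r3g, a targeting subunit known for its induction by fasting in mouse liver, was the sparsest (chr13:35958839-35970388, plus strand). It had 4 UMIs in the fed library and 167, 27, 42 and 44 UMIs in the 4, 8, 16 and 24 h libraries. These were 0.11, 3.67, 0.80, 1.25 and 1.17 CPM. The 4 h library was highest, 34.6-fold over fed with a wide interval (13.3 to 129), and the other fasted libraries were 7.54-fold (2.63 to 29.7), 11.8-fold (4.29 to 45.4) and 11.1-fold (4.03 to 42.4) over fed. Since the gene stayed under 10 CPM in every library, it counts in none of the main calls below. In barcodes under 2% mitochondrial UMIs it was at 7.99 CPM at 4 h and 2.25 CPM at 24 h, with 0 UMIs at 0, 8 and 16 h.

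A gene was called when it differed from fed by 2-fold or more and reached 10 CPM in either library. The 4 comparisons share the fed library. At 4 h, 0 of the 6 members that reached 10 CPM were called in either direction, against 3.67% higher and 6.04% lower among 7299 genes. At 8 h, Ppp1r3c was higher and Ugp2, Gbe1 and Ppp1r3b were lower, 1 and 3 of 6, against 5.68% and 11.2% of 7389 genes. At 16 h, Ppp1r3c was higher and Ppp1r3b lower, 1 each of 7, against 2.87% and 3.6% of 7355 genes. At 24 h, 0 were higher and Ppp1r3b was lower, 1 of 7, against 4.73% and 8.77% of 7356 genes. The members' median log2 ratio was -0.72, -1.01, -0.31 and -0.39 in time order, beside -0.091, -0.078, -0.017 and -0.10 over all genes tested. With TMM scaling the background split moved from 268 higher and 441 lower to 437 and 257 at 4 h, from 420 and 830 to 727 and 529 at 8 h, from 211 and 265 to 245 and 212 at 16 h, and from 348 and 645 to 525 and 438 at 24 h, and with all UMIs in the denominator to 188 and 583 at 4 h. Over the genes at 10 CPM or more in both libraries, TMM scaling moved the median from -0.07 to 0.13 at 4 h, from -0.05 to 0.17 at 8 h and from -0.07 to 0.09 at 24 h on the log2 scale. The direction of Ugp2, Gbe1, Pygl, Ppp1r3b and Ppp1r3c against fed was the same at every time under the 10 alternatives that can move it.

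To count the cells that carried a transcript, hepatocytes were thinned to 1000 non-mitochondrial UMIs, leaving out the 103, 5, 7, 39 and 8 that carried endothelial markers and 0, 4, 25, 118 and 0 shallower cells in time order. Ppp1r3c was then found in 3.24, 5.81, 23.7, 7.31 and 2.93% of hepatocytes in time order, with a 95% Clopper-Pearson interval of 22.1 to 25.4% at 8 h. Without thinning the shares were 16.2, 39.1, 84.9, 24.7 and 21.2%, at median depths of 4774, 9425, 13652, 3791 and 7223 non-mitochondrial UMIs. In the 178 endothelial-marker barcodes of the fed library the thinned share was 3.37% (1.25 to 7.19%, median depth 1712). That interval includes the fed share of Ppp1r3c in hepatocytes. Of these barcodes 103 had passed the hepatocyte filters, and no doublet caller was run, so they may also hold hepatocyte RNA. Gys2 is the liver isoform, which endothelial cells should lack, whereas Gbe1 and Ugp2 are known from most cell types, so that for these genes the endothelial-marker barcodes can hold RNA of their own as well as free RNA. At 8 h 0 of 15 such barcodes had a Ppp1r3c UMI after thinning, which allows a share of up to 21.8%.

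Ppp1r3b was found in 45.7% of thinned hepatocytes when fed, then 26.2, 24.4, 11.3 and 17.2% in time order. Its share in the endothelial-marker barcodes was 21.9% (16.1 to 28.7%) when fed, below the hepatocytes of that library. At 16 h it was 4.88% of 41 barcodes (0.60 to 16.5%), an interval that includes the hepatocyte share, as did those at 4 h (0 of 5, up to 52.2%) and 24 h (15.4% of 13, 1.92 to 45.4%), so at these times Ppp1r3b was not shown to lie above the endothelial-marker barcodes. Pygl was found in 30.6, 18.2, 21.1, 22.4 and 16.8% of hepatocytes, with 16.9% in the fed endothelial-marker barcodes. Gbe1 was found in 25.0, 16.5, 11.6, 21.2 and 13.1%, with 8.99% in those barcodes. At 4, 8, 16 and 24 h the intervals of the 5, 15, 41 and 13 endothelial-marker barcodes included the hepatocyte share of Pygl and that of Gbe1, so a difference from them was shown only when fed. Gys2 was found in 9.98, 9.92, 7.27, 12.9 and 11.8%, with 6.74% (3.53 to 11.5%) in the fed endothelial-marker barcodes, an interval that includes its fed share in hepatocytes. The shares of these genes had the order of their levels at the highest and lowest times.

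The shares of Ugp2 were 46.5, 30.4, 17.5, 39.4 and 38.1% of thinned hepatocytes, and 38.8% (31.6 to 46.3%) in the fed and 39.0% (24.2 to 55.5%) in the 16 h endothelial-marker barcodes. At 16 h the hepatocyte share of Ugp2 could not be told from that of these barcodes, and at 0 h the intervals of both overlapped. At 8 h, 0 of 15 such barcodes had a Ugp2 UMI after thinning, which allows a share of up to 21.8%, against 6.67% without thinning. The part of free RNA in the Ugp2 levels was not tested.

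**Figure D3:**
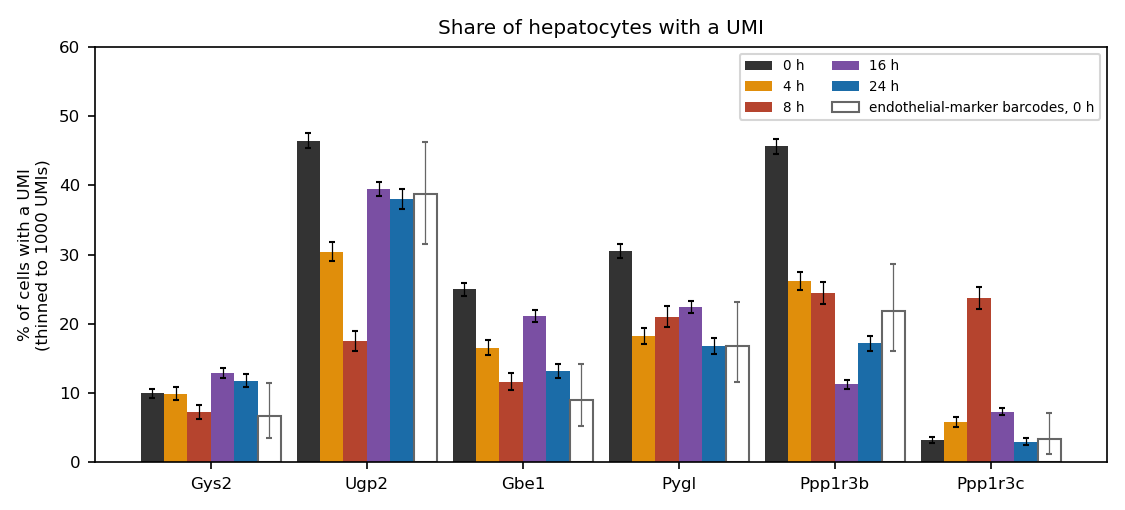
Percent of hepatocytes with at least 1 UMI of a gene after thinning to 1000 UMIs, by hours without food (filled bars), beside the 178 endothelial-marker barcodes of the fed library (open bars). Error bars are 95% Clopper-Pearson intervals; Ppp1r3c stood out at 8 h (23.7%) and the open bar of Ugp2 (38.8%) lay near its filled bars at 16 h (39.4%) and 24 h (38.1%) and above those at 4 h (30.4%) and 8 h (17.5%).

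The liver lobule runs from the portal vein, where Cyp2f2 is high, to the central vein, where Cyp2e1 is high, and carbohydrate metabolism is known to differ along it. Hepatocytes with a UMI of either gene were ranked in each library by Cyp2f2 against Cyp2e1, which left out 85, 27, 18, 45 and 195 in time order (4.26% at 24 h), and were split into 3 equal parts, called portal, middle and central. They are parts of a continuous range and no position in tissue was measured. Glul, glutamine synthetase, a marker of the cells next to the central vein that was not used in the ranking, was highest in the central part at 0, 4, 8 and 16 h. At 24 h it was at 43.5 CPM in the central, 54.6 in the middle and 55.3 CPM in the portal part, so at that time the part called central goes against this marker. Hal, histidine ammonia-lyase, also not used in the ranking, was lowest in the central part in every library. At 24 h Hal was at 729, 998 and 965 CPM from central to portal. A gene was called when the outer parts differed 1.5-fold or more and it reached 10 CPM in either.

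No member was called in either direction at any time, among 6 tested at 0, 4 and 8 h and 7 at 16 and 24 h. At 24 h this depended on the cells kept: Gbe1, Phka2, Ppp1r3b and Ppp1r3c were called higher in the portal part with 2 to 15% or 0 to 30% mitochondrial UMIs, where 46.7% and 41.3% of all genes tested were, and the last 3 by per-cell means, beside 31.1% of all genes. In the setting of the main results the background at 0 h was 1.56% higher in the portal and 4.81% in the central part. The 4 h library had 3.95% and 5.07%, the 8 h library 1.71% and 2.85%, the 16 h library 2.22% and 4.87%, and the 24 h library 5.71% and 10.3%. Over the members the median portal-to-central ratio (log2) came to 0.03, -0.04, 0.01, 0.06 and 0.26, beside -0.07, -0.04, -0.04, -0.09 and 0.13 over all genes. The largest time differences were present in all 3 parts. Ppp1r3c at 8 h was at 256 CPM in the central, 243 in the middle and 267 in the portal part, and Ppp1r3b at 16 h at 123, 125 and 122 CPM.

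**Figure D4:**
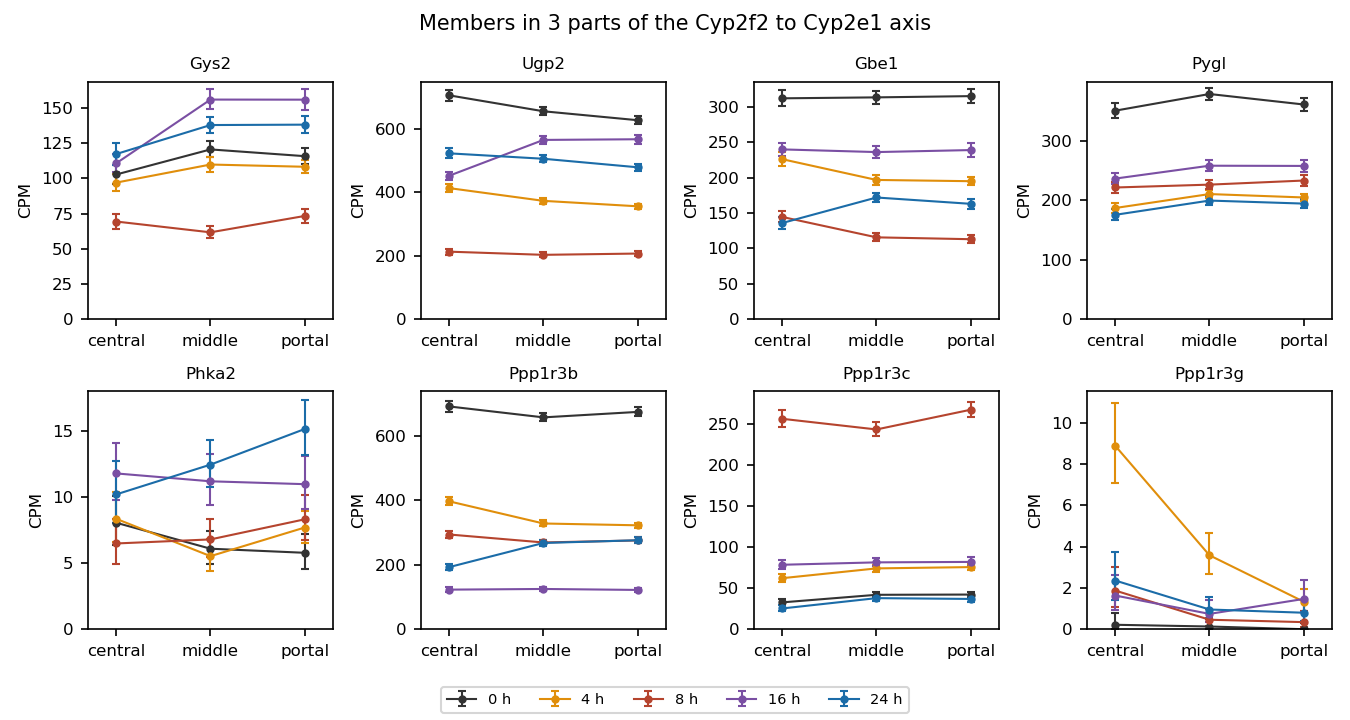
Level (CPM, from 0) of 8 of the 9 genes (not Gyg) in the central, middle and portal part of the Cyp2f2 to Cyp2e1 axis, with 1 line per library and exact 95% Poisson intervals for counting error. Ppp1r3g at 4 h sloped down from 8.88 CPM in the central part to 1.33 CPM in the portal part.

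The log2 portal-to-central ratio of Gys2 was 0.17, 0.16, 0.08, 0.49 and 0.24 in time order. At 8 h its interval (-0.07 to 0.23) included 0 and 3 of the 8 alternatives that can move it had the other sign, and at 24 h the ratio was 0.007 with at least 6000 UMIs. At 16 h Gys2 was at 111 CPM in the central part and 156 CPM in both the middle and the portal part, a log2 ratio of 0.49 (0.38 to 0.60), and over the 8 alternatives the ratio stayed between 0.38 and 0.78. Ugp2 leaned to the central part when fed, with 704, 654 and 626 CPM from central to portal, and at 4 h. The fed central part held 100 barcodes of another class, against 10 and 1 in the middle and portal parts, and had a median of 3013 UMIs, against 7132.5 in the middle and 5706.5 in the portal part. The fed log2 ratio of Ugp2 was -0.17, also without barcodes of another class, and -0.07 with at least 6000 UMIs. At 16 h it leaned to the portal part, with 452, 564 and 566 CPM and a log2 ratio of 0.33 (0.27 to 0.38; 0.25 to 0.44 over the alternatives). Gbe1 at 8 h was higher in the central part, at 144, 116 and 113 CPM, with a log2 ratio of -0.35 (-0.44 to -0.26 over the alternatives). Pygl was nearly level, with log2 ratios from 0.04 to 0.15 at the 5 times.

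Ppp1r3g had the steepest slope, under 10 CPM. At 4 h it was at 8.88 CPM (7.11 to 10.97) in the central, 3.58 in the middle and 1.33 CPM (0.89 to 1.93) in the portal part, a log2 ratio of -2.74 (-3.41 to -2.11), and over the alternatives the ratio ran from -3.19 to -1.67. At 8 h the log2 ratio was -2.45 (-4.48 to -0.83) and at 24 h -1.56 (-2.79 to -0.40). At 16 h it was -0.15 and its interval included 0. The fed library had 0 Ppp1r3g UMIs in the portal part.

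At 24 h, Ppp1r3b, Ppp1r3c and Phka2 were lower in the part called central. Ppp1r3b was at 193, 268 and 276 CPM, Ppp1r3c at 25.3, 37.9 and 36.9 CPM and Phka2 at 10.2, 12.5 and 15.2 CPM from central to portal. The log2 ratios were 0.52, 0.54 and 0.57 (0.19 to 0.96 for Phka2). Depth moved with this: the median UMI count was 3298 in the central, 14025.5 in the middle and 11174 in the portal part at 24 h. Among hepatocytes with at least 6000 UMIs, a setting added after the data were seen, the log2 ratio was 0.09 for Ppp1r3b, -0.17 for Ppp1r3c and 0.17 for Phka2, the lowest values over the alternatives. The highest were 1.46 for Ppp1r3b and 2.69 for Phka2 with 2 to 15% mitochondrial UMIs, and 1.02 for Ppp1r3c with 0 to 30%. The part of depth in these slopes was not tested further. At 4 h the portal part was the deepest (18960 against 3119.5 UMIs in the central part), and the ratio of Ppp1r3b there ran from -0.36 to 0.56 over the alternatives, so no direction is given.

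Of 38 other genes of glycogen metabolism and its control, all in the files, 23 reached 10 CPM. By the 2-fold rule, 1 was higher and 0 lower than fed in the 4 h library, 1 and 1 in each of the 8 h and 16 h libraries, and 0 in either direction in the 24 h library. The background was 3.67% higher and 6.04% lower at 4 h, 5.68% and 11.2% at 8 h, and 2.87% and 3.6% at 16 h. Their median log2 ratio was -0.11, -0.14, 0.06 and -0.07, near the median over all genes. Irs2, an adaptor of the insulin receptor, was higher at 4, 8 and 16 h, at 30.1, 36.0 and 41.8 CPM against 10.4 CPM when fed, and at 17.6 CPM at 24 h.

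Slc2a2, the GLUT2 glucose transporter, was called lower at 8 h, with 646, 390, 219, 587 and 610 CPM in time order. With 2 to 15% mitochondrial UMIs it also passed 2-fold at 4 h (log2 -1.26, against -0.73). Its low point was that of Ugp2, Gbe1 and Gys2. Slc37a4, the glucose 6-phosphate transporter of the endoplasmic reticulum, was called lower at 16 h, with 225, 188, 248, 99.1 and 218 CPM. G6pc, the glucose 6-phosphatase that frees glucose for export, was at 398, 339, 729, 784 and 576 CPM, 1.83-fold over fed at 8 h and 1.97-fold at 16 h, and was not called. It passed 2-fold with TMM scaling at 8 h (log2 1.12) and 16 h (1.04), and at 16 h also with 0 to 30% mitochondrial UMIs (1.08) and by per-cell means (1.13). The lowest log2 ratios of G6pc over the alternatives were 0.82 at 8 h and 0.64 at 16 h, both with at least 6000 UMIs. Along the axis, G6pc was 1.5-fold or more higher in the portal part at 0 h, beside 1.56% of all genes tested. At 24 h G6pc, Slc2a2 and Slc37a4 were, 3 of 23, beside 5.71%. Phkg2, a phosphorylase kinase subunit, was higher in the central part at 8 h, beside 2.85%. The 24 h central part was shallow (median 3298 UMIs, against 11174 in the portal part), and Glul went against its label. Over all genes the 24 h portal share ran from 0.33% with at least 6000 UMIs to 46.7% with 2 to 15% mitochondrial UMIs. The axis ratios of these other genes were not recomputed under the alternatives.

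**Figure D5:**
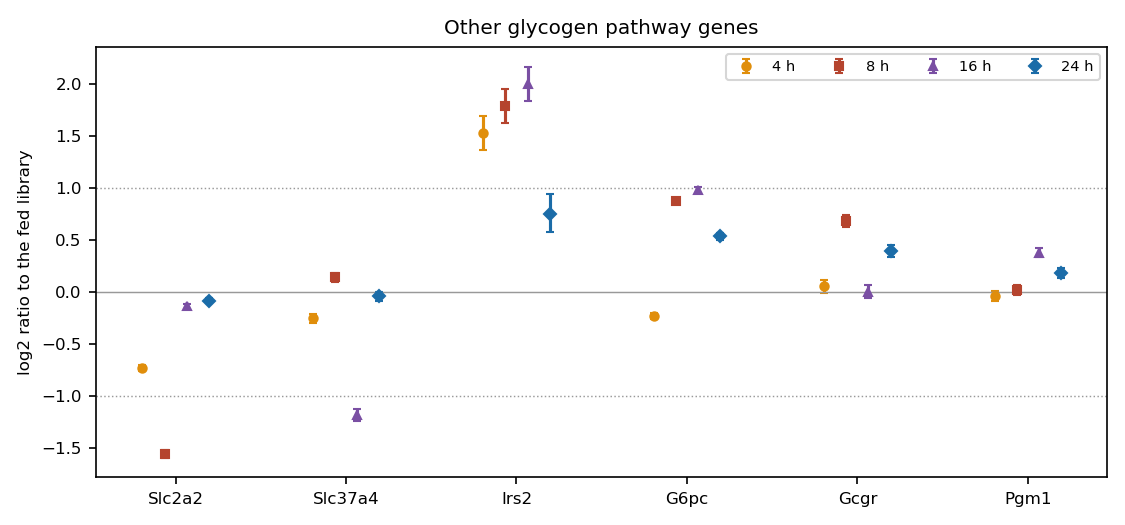
Log2 ratio to the fed library (vertical axis, dotted lines at 2-fold) of 6 other glycogen pathway genes at 4, 8, 16 and 24 h without food, with exact 95% intervals for counting error. Irs2 lay above the upper line at 4, 8 and 16 h, Slc2a2 below the lower line at 8 h (-1.56) and Slc37a4 at 16 h (-1.18).

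Likeness of pattern was measured as the root mean square difference of log2(CPM + 1), each gene centred on its own mean, over the 15 strata of 5 libraries by 3 axis parts, among 6926 genes. It is a description of these libraries. Nearest to Gys2 were Rtn4 (0.14), Prps2 (0.15) and Apoh (0.15), and to Pygl Psme3 (0.09), Haao (0.10) and Baz1a (0.11). Nearest to Ppp1r3b were Col27a1 (0.18), Gm14403 (0.28) and Srm (0.29), where Ppp1r3b itself varied with a standard deviation of 0.80. Ppp1r3c had no neighbour as near: Slc25a22 (0.43), Eps8l2 (0.45) and Insig2 (0.50) came first, beside a standard deviation of 1.04 of its own. Insig2, a regulator of sterol and fatty acid synthesis, was also highest against fed at 8 h (log2 2.07), as were Slc25a22 (1.87) and Eps8l2 (1.87). For the sparse Ppp1r3g the nearest genes, Rps15a (0.48), Rps21 (0.49) and Setdb2 (0.50) lay well off its pattern, beside a standard deviation of 0.84 of its own.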

How the data were processed

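The deposited matrix held raw UMI counts for each gene in each barcode, with 10000 barcodes for each of the 5 libraries, 1 per time, made with 10x Genomics 3' v3 chemistry per the labels' protocols. Per the submitters' processing notes, Cell Ranger 6.0.1 and mm10 were used; the annotation and any strand setting are not stated in the labels. The barcode table named each barcode's library, and the number of sample columns not used was 0. Total counts per library ranged from 40002260 to 68330252 UMIs.

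Hepatocyte barcodes were chosen by the filters in the report, with no doublet caller, so that doublets remain. Counts were summed per library and divided by non-mitochondrial UMIs. Intervals are exact at the 95% level (Poisson for CPM, conditional binomial for ratios, Clopper-Pearson for shares). UMIs mark molecules, and the intervals cover counting error only. With 1 library per time no test across animals was possible. The axis score was log2(1 + Cyp2f2 per 10000) minus log2(1 + Cyp2e1 per 10000). A barcode carried another class when at least 3 markers of it were detected and made up 1% or more of its UMIs.

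The alternatives were other scalings (TMM factors from edgeR 4.0.16 in R 4.3.3, median of ratios, other denominators), other filters, per-cell means, other CPM minimums, another axis, 5 parts of it in place of 3, and thinning to 2000 UMIs. The scripts ran on scipy 1.17.1 with pandas 2.3.3, on numpy 2.4.6 under python 3.11.15 and on matplotlib 3.10.9 for plots, and were tested on simulated data. GENCODE M21 (GRCm38), the source of positions, held 32158 (99.6%) of the gene IDs; promoters are RefSeq's. The rule for named genes took all 9 members, the pathway genes called against fed and the 3 genes nearest in pattern to 5 members; G6pc and the genes called along the axis were named after their values had been seen. The members and lists were chosen with earlier results of these data known, and some genes of the pathway list are not reported here.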

Additional observations from a re-analysis of the deposited data

Results flagged for a closer look

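Some members differed from fed, or between the ends of the axis, in opposite directions at different times. None of these differences was tested, since each time was 1 library. For Gys2, glycogen synthase, the log2 ratio to fed was below 0 at 8 h and above 0 at 16 h, 1.06 apart. For Ppp1r3c, the PP1 subunit, the ratio was above 0 at 8 h and below 0 at 24 h, 2.88 apart.

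Along the axis, Ugp2 leaned to the central part at 4 h and to the portal part at 16 h, and its log2 portal-to-central ratios were 0.54 apart. For Gbe1 the ratio was -0.35 at 8 h and 0.26 at 24 h, 0.62 apart, but with at least 6000 UMIs the 24 h ratio was -0.06, so no direction is given for 24 h. For Ppp1r3b the ratio was -0.30 at 4 h and 0.52 at 24 h, 0.82 apart. The 4 h ratio had the other sign in 3 of 8 alternatives, so no direction is given for it, and the 24 h ratio was 0.09 with at least 6000 UMIs.

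Barcodes under 2% mitochondrial UMIs, which were kept out of the hepatocytes, also held more Ppp1r3c at 8 h and 16 h than the same kind of barcode in the fed library. The log2 ratio there was 2.13 at 8 h and 1.13 at 16 h, beside 0.08 (-0.24 to 0.40) at 4 h and -0.89 (-1.21 to -0.56) at 24 h.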

How the results depend on the processing

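No called ratio to fed changed direction under the 10 alternatives that can move it. Along the axis no member was called, so the 8 alternatives that can move an axis ratio had no call to reverse. Uncalled axis ratios did change sign, as for Gbe1 at 0 h and 16 h and Ppp1r3b at 16 h, each in 5 of 8. The other 2 alternatives, which change the CPM minimum, move only counts. Of all these, the minimum of 6000 UMIs was chosen after seeing the data. Members higher than fed numbered 1 at 4 h with TMM scaling or without a CPM minimum, beside 6.06 and 9.28% of all genes tested. At 8 h they numbered 2 without a minimum, beside 9.08%. At 16 h they numbered 0 with all UMIs in the denominator (2.59% of all genes) or with 2 to 15% mitochondrial UMIs (3%). They numbered 2 there without a minimum (9.78%) or with at least 6000 UMIs (3.63%). At 24 h they numbered 1 with TMM (7.24%) or median-of-ratios scaling (5.89%), or with at least 3000 (4.85%) or 6000 UMIs (4.64%). They also numbered 1 at 24 h without barcodes of another class (4.85%) or without a minimum (12.2%). Members lower than fed numbered 1 at 4 h with all UMIs, without genes over 1% of UMIs, with 0 to 30% mitochondrial UMIs or by per-cell means, and 2 with 2 to 15%. Over all genes tested 8.48, 7.24, 7.1, 7.95 and 12.3% were lower in these settings. At 24 h they numbered 2 with all UMIs, 2 to 15%, 0 to 30% or per-cell means, beside 10 to 11.6% of all genes. In the portal part 1 member was higher at 0 h with 5 parts, beside 3.16% of all genes tested. At 4 h 1 was higher with 2 to 15% (30.7% of all genes) or by per-cell means (15.8%). At 16 h 1 was higher with the landmark axis (2.85%) or 5 parts (3.54%). At 24 h 4 were higher with 2 to 15% (46.7%) or 0 to 30% (41.3%), 3 by per-cell means (31.1%) and 1 with 5 parts (10.8%). In the central part 1, Ppp1r3g, was higher at 4 h with 2 to 15% (13.8% of all genes tested) or 5 parts (7.16%). Without a minimum 2 were higher at 0 h (22.8%), 2 at 4 h (16%) and 1 each at 8, 16 and 24 h (13.5, 18.6 and 22.2%). The cause was not tested, except that without a minimum more members are counted. Of the other values, 353 were marked as moved and 753 as the same, by rules that differed by kind. Ratios were held against their counting interval, and pattern distances and pathway counts against fixed limits. Shares at 2000 UMIs were held against the interval at 1000 UMIs. A share rises with depth (Gys2 when fed, 9.98% and 19.5%), so part of the 353 was bound to move. Without a CPM minimum, 7 to 9 other pathway genes were lower than fed, against 0 or 1. Over all genes tested 24.2, 29.6, 20.1 and 23.3% were lower without it in time order, against 6.04, 11.2, 3.6 and 8.77%. With at least 50 CPM 0 pathway genes were higher, against 1 at 4, 8 and 16 h, beside 5.73, 7.95 and 3.31% of all genes. The counts of Gyg, Phka2 and Ppp1r3g limit their ratios. No paired analysis was possible because each time is 1 library with no replicate numbers.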
